A study of Homo sapiens with 83 samples.

Results

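DBP, TEF, HLF and NFIL3 are the clock output factors that bind the D-box, a short DNA element in many rhythmic promoters. They were picked by gene symbol and not by a measured value, though with earlier results of these data known. They are 4 of the 60237 genes in the deposited table, with 1 entry each. The 4 genes lie on GRCh38 (GENCODE 44) at chr19:48630030-48637379 on the minus strand for DBP, chr22:41367333-41399326 on the plus strand for TEF, chr17:55264960-55325187 on the plus strand for HLF and chr9:91409045-91423832 on the minus strand for NFIL3. They were followed in SHEP and SKNAS, human neuroblastoma cell lines that both overexpress N-MYC-ER, in which N-MYC is joined to the hormone-binding part of the estrogen receptor and enters the nucleus when 4-hydroxytamoxifen is added. MYC-OFF cells received the ethanol vehicle and MYC-ON cells received 4-hydroxytamoxifen, and all cells of all 4 groups then received dexamethasone, which aligns their clocks. CT is the number of hours after dexamethasone. SHEP had 2 time series from CT24 to CT76 at steps of 4 h, or 28 libraries for each condition. SKNAS had 1 series, of 14 libraries without 4-hydroxytamoxifen and 13 with it, the latter ending at CT72. The comparison asks how an active N-MYC changes the level and the rhythm of these factors.

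DBP, TEF and HLF are the proline and acidic amino acid-rich (PAR) bZIP proteins, activators that dimerize and bind the D-box. NFIL3, also called E4BP4, is a bZIP repressor that binds the same element. In the textbook clock, CLOCK and BMAL1 (ARNTL) drive DBP through E-boxes, NFIL3 is held down by the REV-ERB receptors NR1D1 and NR1D2 at ROR elements, and the opposite timing of activators and repressor gives D-box genes, among them some PER genes, their own phase. In liver and kidney the PAR bZIP proteins also drive genes of drug and vitamin metabolism.

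The promoter windows of the members and of the D-box clock genes are shown as places where clock factors could act on the members and the members on clock genes. Binding was not measured. RefSeq windows of 300 bases (250 before and 50 after an annotated start, GRCh38.p14) were searched on both strands for the E-box CACGTG, the D-box as TTATGTAA or TTACGTAA, and the ROR half-site AGGTCA. None of these motifs overlapped another in the windows shown. Of 35116 windows of all genes, 7.26% held the E-box, 1.01% the D-box and 13.8% the ROR half-site. The 4 members had 7 windows. The E-box was found in both TEF windows, at -195 to -190 and at -193 to -188 from the annotated start, which counts as 0. The ROR half-site was found in 1 NFIL3 window, at -9 to -4. DBP and HLF windows held none of these letters and no member window held the D-box, which says only that the letters are not in these windows. The TEF windows follow with the E-box in capitals, up to the first base that GENCODE counts as exon. The first lies just before the gene at chr22:41367205-41367332 and the second inside it, outside any exon, at chr22:41381692-41381941, both on the plus strand.
TEF window 1: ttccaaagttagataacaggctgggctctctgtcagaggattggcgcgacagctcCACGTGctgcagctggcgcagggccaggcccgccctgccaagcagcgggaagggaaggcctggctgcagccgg
TEF window 2: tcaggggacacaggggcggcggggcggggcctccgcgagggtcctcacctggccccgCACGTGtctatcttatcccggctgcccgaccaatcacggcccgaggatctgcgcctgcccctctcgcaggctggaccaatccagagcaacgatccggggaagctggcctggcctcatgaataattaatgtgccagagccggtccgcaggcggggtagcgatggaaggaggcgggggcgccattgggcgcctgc

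The D-box was found in 3 of the 8 clock genes listed as D-box genes, over 11 windows. These were PER2 at chr2:238288596-238288623 on the minus strand, where it spans -3 to 4, PER3 at chr1:7784104-7784131 on the plus strand, at -177 to -170, and NR1D2 at chr3:23945917-23945944 on the plus strand, at -194 to -187, where it lies in reverse. They are the sites in these windows where activators and NFIL3 could compete, and are printed in the direction of the gene with the D-box letters in capitals.
PER2: ccgctgcggcTTACGTAAccgccgccgg
PER3: agcccgcgcgTTATGTAAcgcgccccgg
NR1D2: tgacgcggcaTTACATAAtgggcgctga

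All values are TPM, transcript abundances that scale each library to one total and keep no read depth. No counting error could therefore be attached to a value, and fewer expressing cells and less RNA per cell cannot be told apart. The median of log2(TPM + 1) over genes ranged from 3.93 to 4.17 in the SHEP libraries, but in SKNAS from 2.97 to 4.38 for MYC-OFF and from 2.76 to 4.25 for MYC-ON. It was at least 3.8 in 10 of 14 SKNAS MYC-OFF and 3 of 13 SKNAS MYC-ON libraries, and SKNAS results are therefore also given for those libraries where that matters. MYCN is read from the fusion together with any RNA of the cell's own gene, which the authors report as not expressed in SHEP. It had medians of 560 TPM (MYC-OFF) and 353 TPM (MYC-ON) for SHEP. For SKNAS the medians were 612 and 309 TPM, and single libraries went down to 29.1 and 13.1 TPM. Since the fusion is activated by its entry into the nucleus, its RNA level does not check the labels. Of the 6 adrenergic neuroblastoma markers summed here, PHOX2A and TH were at 0 in most SHEP libraries. For SHEP the summed level of the 6 ranged from 28.2 to 43.8 TPM without and from 37.6 to 55.7 TPM with 4-hydroxytamoxifen, and for SKNAS from 261 to 588 TPM without and from 82.2 to 254 TPM with it. The 7 mesenchymal markers were all detected, with summed medians of 4165, 3975, 1818 and 1925 TPM in the same order. Most of this sum was VIM, with medians of 3393, 3425, 1576 and 1794 TPM, so it hides the other markers. PRRX1 alone had higher medians in SKNAS, with 0.501, 3.73, 71.8 and 45.4 TPM. Between conditions the markers did not move together. FN1 was lower in MYC-ON, with 364, 69.3, 15.1 and 4.20 TPM, and CD44 was higher, with 248, 255, 38.8 and 46.8 TPM.

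In both lines the activators DBP, TEF and HLF were higher and the repressor NFIL3 was lower in MYC-ON. On the log2(TPM + 1) scale DBP rose by 0.89 in SHEP and 0.90 in SKNAS, TEF rose by 0.81 and 0.64, and NFIL3 fell by 0.88 and 1.04. HLF, the rarest of the 4, was called in a fit without the filter on low values, a call that in SHEP did not hold under every setting.

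DBP, the most abundant activator in each group's median, ranged in SHEP from 1.96 to 6.87 TPM in MYC-OFF, with a median of 4.98, and from 5.54 to 14.1 TPM in MYC-ON, with a median of 9.80. At the same series and CT the MYC-ON library was higher in 28 of 28 pairs, and 27 of 28 MYC-ON libraries lay above the highest MYC-OFF library. In SKNAS, DBP ranged from 3.32 to 24.1 TPM in MYC-OFF with a median of 11.7, and from 11 to 40.8 TPM in MYC-ON with a median of 24.5. Here 12 of 13 pairs were higher in MYC-ON, the exception being CT52 with 11 against 11.3 TPM, and 7 of 13 MYC-ON libraries lay above the highest MYC-OFF library. The log2(TPM + 1) difference was 0.89 (SE 0.073, limma, adjusted p = 4.43e-15) in SHEP and 0.90 (SE 0.205, limma, adjusted p = 0.0022) in SKNAS. Among SKNAS libraries with a median of at least 3.8, DBP ranged from 6.55 to 17.3 TPM in 10 MYC-OFF and from 11 to 24.5 TPM in 3 MYC-ON libraries. The difference was 0.40 and no longer passed (limma, adjusted p = 0.21). This fit had no term for CT, and the MYC-ON libraries, at CT32, CT44 and CT52, were not matched in time to the MYC-OFF ones. In the same-CT pairs of these 3 MYC-ON libraries the difference was 0.04, 1.05 and -0.03. MYC-ON libraries below 3.8 had a DBP median of 24.9 TPM, against 13.1 TPM at 3.8 or more. For MYC-OFF these were 15.0 and 11.7 TPM. With the library median as a covariate the fit to all SKNAS libraries gave 0.66 (limma, adjusted p = 0.0171). The part of library composition in the DBP difference was not tested. The 3′ end of DBP overlaps SPHK2 on the other strand (chr19:48619291-48630717), and how the authors' counting used strand was not stated. SPHK2, a sphingosine kinase, had medians of 12.1 and 15.0 TPM in SHEP MYC-OFF and MYC-ON and of 15.3 and 10.1 TPM in SKNAS. Its difference was 0.22 in SHEP (limma, adjusted p = 0.000408) and -0.30 in SKNAS (limma, adjusted p = 0.292, not called). The SKNAS value is near the median of all tested genes in that fit, -0.29. Whether SPHK2 reads entered the DBP values was not tested.

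TEF, the PAR bZIP factor first described in the pituitary, ranged in SHEP from 0.409 to 2.99 TPM in MYC-OFF with a median of 1.66, and from 1.78 to 7.57 TPM in MYC-ON with a median of 3.34. MYC-ON was higher in 28 of 28 pairs, while 17 of 28 MYC-ON libraries lay above the highest MYC-OFF library, so the groups overlapped more than for DBP. In SKNAS, TEF ranged from 0.444 to 4.31 TPM in MYC-OFF with a median of 1.5, and from 1.83 to 6.26 TPM in MYC-ON with a median of 3.53. MYC-ON was higher in 10 of 13 pairs. The exceptions were CT24 with 1.83 against 1.86 TPM, CT28 with 1.98 against 3.11 TPM and CT36 with 3.34 against 4.31 TPM, and from CT40 on every MYC-ON library was higher than its MYC-OFF pair. The difference was 0.81 (SE 0.074, limma, adjusted p = 2.02e-13) in SHEP and 0.64 (SE 0.173, limma, adjusted p = 0.00696) in SKNAS on the log2(TPM + 1) scale.

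HLF, named for its fusion in a leukemia, was near 0 in SHEP MYC-OFF, where 18 of 28 libraries listed it at 0 and the highest held 0.070 TPM. In SHEP MYC-ON it ranged from 0.00939 to 0.923 TPM with a median of 0.087, and 27 of 28 pairs were higher in MYC-ON. In SKNAS it ranged from 0 to 1.89 TPM in MYC-OFF with a median of 0.247, and from 0.225 to 3.18 TPM in MYC-ON with a median of 1.18, with 11 of 13 pairs higher in MYC-ON. HLF is therefore the member with the lowest median in every group, and its mean stayed below the 1 TPM that the test asked for in both lines. Fitted without that filter the log2(TPM + 1) difference was 0.17 in SHEP (SE 0.040, limma, adjusted p = 0.000415) and 0.67 in SKNAS (SE 0.163, limma, adjusted p = 0.00928). Without the filter 5690 of 37736 genes were called higher and 6464 lower in SHEP, and 2003 of 32475 higher and 5078 lower in SKNAS. The sizes for HLF depend on the pseudocount, and with 0.1 in place of 1 they were 0.95 and 1.57. With the library median as a covariate the SHEP difference was 0.147, under the size of 0.15 asked for, and was not called (limma, adjusted p = 0.0206).

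NFIL3 ranged in SHEP from 13.8 to 20.3 TPM in MYC-OFF with a median of 15.6, and from 5.50 to 14.4 TPM in MYC-ON with a median of 7.86. MYC-ON was lower in 28 of 28 pairs, and 26 of 28 MYC-ON libraries lay below the lowest MYC-OFF library. In SKNAS it ranged from 2.84 to 9.59 TPM in MYC-OFF with a median of 6.57, and from 1.13 to 3.78 TPM in MYC-ON with a median of 2.69, lower in 13 of 13 pairs. The groups overlapped through 3 MYC-OFF libraries at 2.84, 2.94 and 3.03 TPM, and 7 of 13 MYC-ON libraries lay below the lowest MYC-OFF library. Among SKNAS libraries with a median of at least 3.8, NFIL3 ranged from 6.20 to 9.59 TPM in 10 MYC-OFF and from 3.02 to 3.78 TPM in 3 MYC-ON libraries. The difference was -0.88 (SE 0.070, limma, adjusted p = 2.17e-15) in SHEP and -1.04 (SE 0.156, limma, adjusted p = 7.02e-05) in SKNAS.

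**Figure D1:**
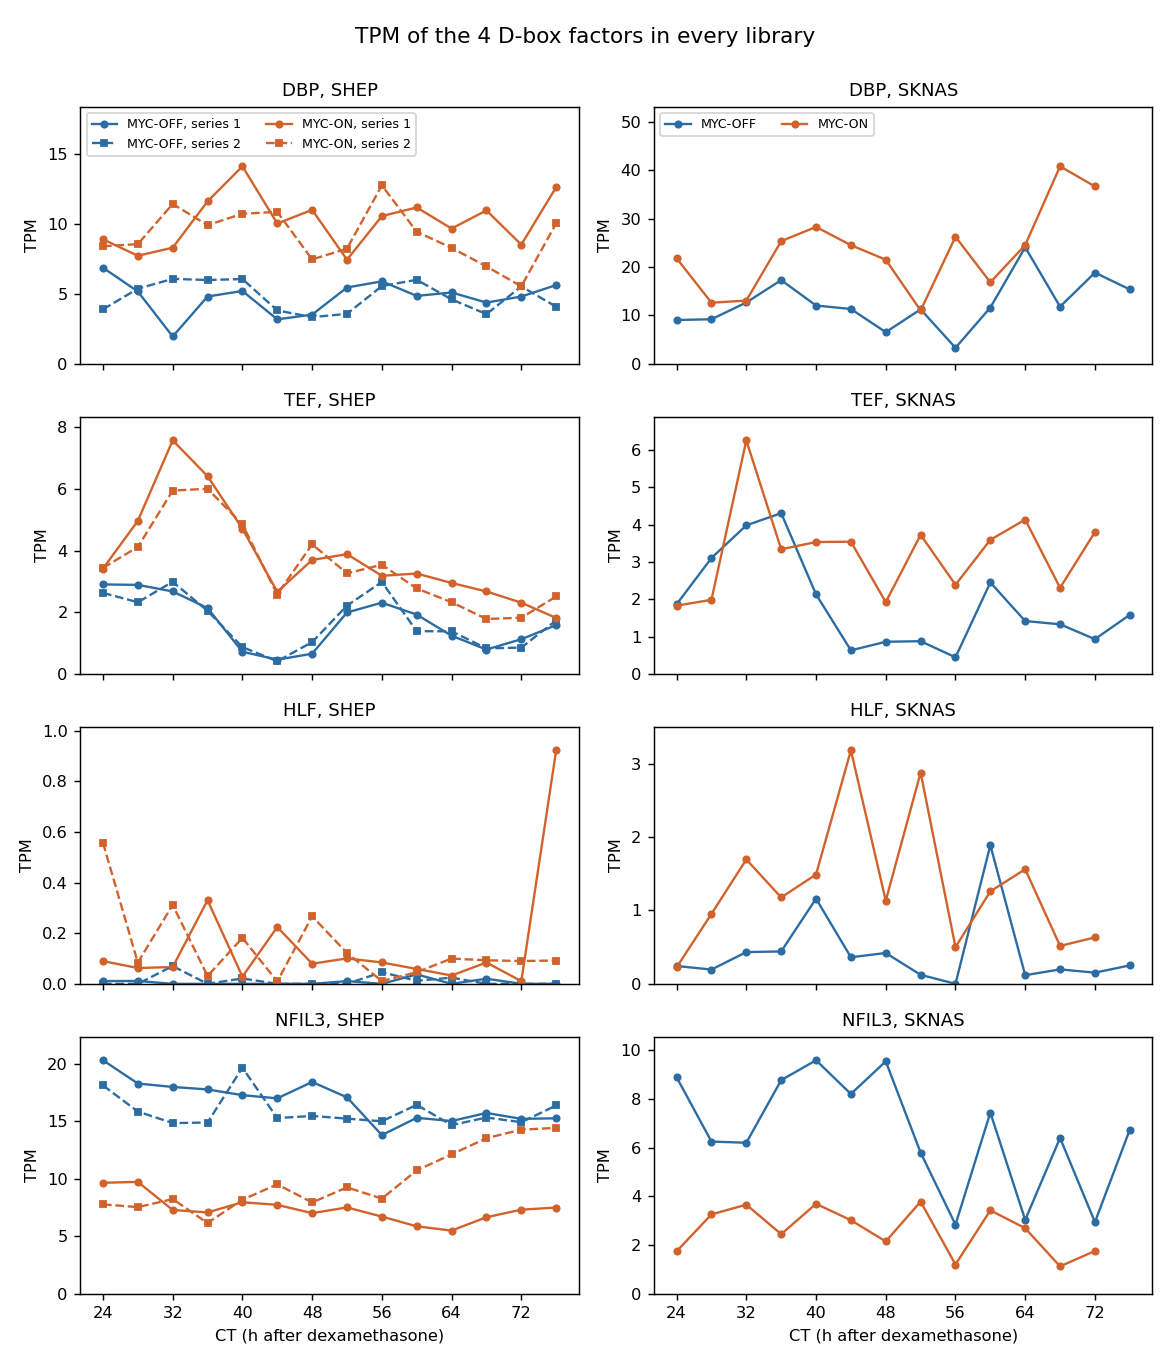
TPM of DBP, TEF, HLF and NFIL3 (rows) against CT in hours after dexamethasone in SHEP (left, series 1 solid and series 2 dashed) and SKNAS (right), 1 point per library, with MYC-OFF in blue and MYC-ON in orange and each panel on its own linear scale from 0. DBP and TEF lie higher and NFIL3 lower in MYC-ON, and NFIL3 in the second SHEP MYC-ON series climbs to 14.4 TPM by CT76.

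Of the 3 members tested in SHEP, 2 were called higher and 1 lower, beside 33.0% and 38.9% of all 14362 tested genes. In SKNAS the same 2 and 1 were called, beside 13.7% and 34.4% of 13886 genes. A call in SHEP was thus common, and 19.8%, 24.0% and 19.1% of all tested genes had a smaller p than DBP, TEF and NFIL3. In SKNAS the median log2 difference of all tested genes was -0.29, and of the genes called 28.5% were higher, against 53.6% when libraries were rescaled by median of ratios, 52.0% with the library median as a covariate and 45.3% in libraries with a median of at least 3.8. Rescaling moved the median of all genes to 0.03, and the SKNAS differences to 1.26 for DBP, 0.91 for TEF and -0.75 for NFIL3. DBP and TEF were higher and NFIL3 lower in both lines under every scaling tried, with DBP not called in the libraries of high median. The time points of a series come from 1 experiment, so p-values measure the spread between time points. The adrenergic marker sum was also lower in SKNAS MYC-ON than in MYC-OFF, and its part in the SKNAS differences was not tested. With the 2 SHEP series means taken as the replicates, DBP, TEF and NFIL3 were still called (limma, adjusted p = 0.00106, 0.00111 and 0.00352). That fit called 3443 of 14362 genes higher and 4091 lower, so a call in it was common too.

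For DBP, TEF and NFIL3 the MYC effect was not called different between the lines. The effect in SKNAS minus that in SHEP was 0.01 for DBP (95% interval -0.32 to 0.35, limma interaction, adjusted p = 0.949), -0.17 for TEF (-0.48 to 0.14, adjusted p = 0.367) and -0.16 for NFIL3 (-0.45 to 0.12, adjusted p = 0.337). None of the 3 was called, where 13.4% of 14870 tested genes were called higher and 38.1% lower in SKNAS. Of those called, 26% were higher, against 51.0% after rescaling and 52.8% with the covariate, and the sign of all 3 members' differences turned under one or another of these settings. HLF, fitted without the filter, rose more in SKNAS by 0.50 (SE 0.114, limma interaction, adjusted p = 0.000608), but with a pseudocount of 0.1 the difference of 0.62 was not called (limma interaction, adjusted p = 0.16). Without the filter 2371 of 39878 genes were called higher and 6705 lower in SKNAS.

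The lines themselves stood apart in DBP, NFIL3 and HLF and not detectably in TEF. In MYC-OFF, SKNAS held more DBP by 1.13 (SE 0.138, limma, adjusted p = 9.21e-09), less NFIL3 by a difference of -1.26 (SE 0.087, limma, adjusted p = 2.13e-14) and more HLF by 0.44 (no filter, limma, adjusted p = 8.24e-06). TEF differed by 0.05 (95% interval -0.17 to 0.27, limma, adjusted p = 0.696). In MYC-ON the differences were 1.13 for DBP (SE 0.119, limma, adjusted p = 4.22e-10), -1.40 for NFIL3 (SE 0.130, limma, adjusted p = 2.43e-11), 0.97 for HLF (no filter, limma, adjusted p = 1.99e-08) and -0.16 for TEF (95% interval -0.37 to 0.05, limma, adjusted p = 0.154), which became 0.23 after rescaling. DBP and NFIL3 were called in MYC-ON under every scaling, at 1.62 and -1.03 after rescaling and at 0.68 and -0.93 with the library median as a covariate. In MYC-OFF 32.1% of tested genes were called higher and 46.4% lower in SKNAS, and in MYC-ON 26% and 58.3%. The MYC-ON calls were 30.9% higher ones, against 47.4% after rescaling, where the median of all genes moved from -0.49 to -0.06. The fits without the filter, used for HLF, called 7004 of 36807 genes higher and 9049 lower in MYC-OFF. In MYC-ON they called 5636 of 37663 higher and 11330 lower. The adrenergic marker sum differed between the lines too, and its part in these differences was not tested. The line and the experiment cannot be told apart, because SKNAS is 1 series.

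The balance of activators and repressor followed from these levels. In SHEP MYC-OFF the summed TPM of DBP, TEF and HLF was 0.214 to 0.615 times that of NFIL3, with a median of 0.400, so the repressor was the more abundant in 28 of 28 libraries. In SHEP MYC-ON the ratio ranged from 0.522 to 2.59 with a median of 1.68. In SKNAS the ratio ranged from 0.821 to 8.44 in MYC-OFF with a median of 2.10, and from 4.66 to 38.7 in MYC-ON with a median of 11.2, so that SKNAS MYC-OFF had a higher median than SHEP MYC-ON. Between group medians the log2 ratio rose by 2.07 in SHEP, where 28 of 28 pairs were higher in MYC-ON and 27 of 28 MYC-ON libraries lay above the highest MYC-OFF library. It rose by 2.42 in SKNAS, with 13 of 13 pairs higher and 9 of 13 libraries above. No test was made of the ratio, since it is a score over the members. With DBP alone over NFIL3 the log2 difference of medians was 1.89 in SHEP and 2.42 in SKNAS, and with TEF alone 2.13 and 2.36. Among SKNAS libraries with a median of at least 3.8 it was 1.49 for the summed activators.

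The median shares of DBP and TEF among the activators lay further apart between lines than between conditions, as a description, and that of HLF did not. DBP made up a median of 75.5% (MYC-OFF) and 74.7% (MYC-ON) of the summed activator TPM in SHEP, and 85.9% and 84.9% in SKNAS. TEF made up 24.5% and 24.7% in SHEP and 11.4% and 11.2% in SKNAS. The share of HLF was 0% and 0.691% in SHEP and 1.78% and 4.61% in SKNAS. The log2 ratio of DBP to TEF differed between MYC-ON and MYC-OFF medians by -0.03 in SHEP and 0.01 in SKNAS. Pair by pair its median difference was -0.21 in SHEP, higher in MYC-ON in 10 of 28 pairs, and 0.50 in SKNAS, higher in 7 of 13.

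**Figure D2:**
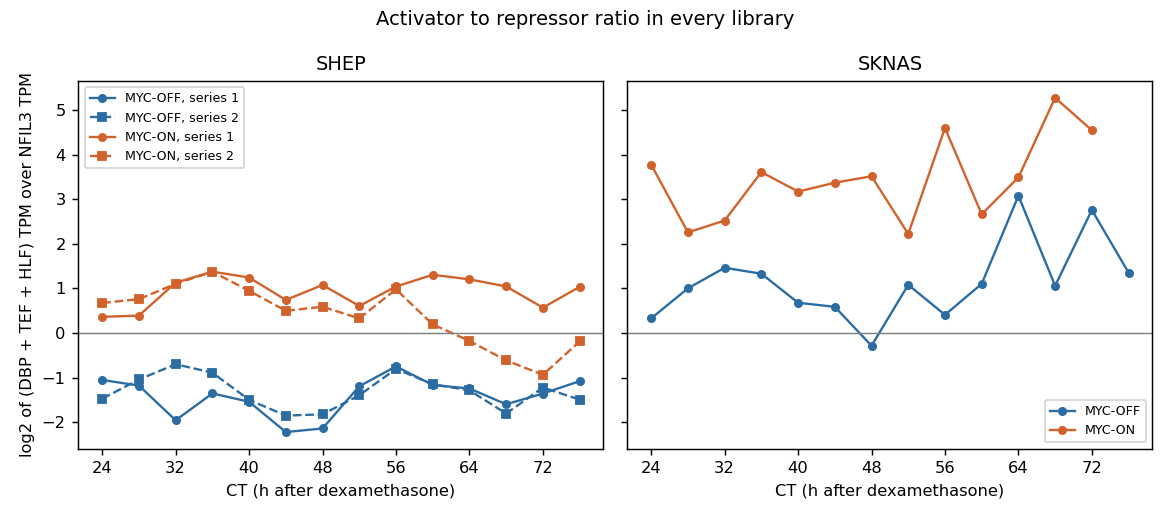
The log2 of the summed TPM of DBP, TEF and HLF over the TPM of NFIL3 (vertical axis) against CT in hours in SHEP (left, 2 series per condition) and SKNAS (right), 1 point per library, where the line at 0 marks equal TPM. Every SHEP MYC-OFF library lies below 0, and the second SHEP MYC-ON series drops to -0.94.

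The fall of NFIL3 was not the same at all times in SHEP. In the second MYC-ON series NFIL3 was 7.78, 7.54, 8.24, 6.15 and 8.18 TPM from CT24 to CT40 and 9.52, 7.94, 9.26 and 8.27 TPM from CT44 to CT56. It then stood at 10.7 TPM at CT60, 12.1 at CT64, 13.5 at CT68, 14.3 at CT72 and 14.4 at CT76. In the first MYC-ON series it stayed at 5.50 to 7.50 TPM over CT60 to CT76, with a median of 6.66. Over these last 5 CTs the median MYC-ON minus MYC-OFF difference in log2(TPM + 1) was -0.17 in the second series and -1.13 in the first. DBP kept medians of 0.73 and 1.04 and TEF of 0.61 and 0.64 in the second and the first series, though DBP in the second series also came to 0.00117 at CT72, with 5.54 TPM in both conditions, where NFIL3 was at -0.06. The 1349 genes that rose and the 1632 that fell at least 1.5-fold in SHEP had median differences of 0.99 and -1.13 in the second series at these CTs. From CT24 to CT56 of that series they were 0.90 and -0.87, and in the first series at CT60 to CT76 0.95 and -0.94. The list was drawn with these libraries included, so it cannot show whether they were otherwise like the rest. The range of CTs was chosen after the values were seen, and without those libraries the SHEP difference was -1.02 for NFIL3, 0.94 for DBP and 0.86 for TEF. The series 1 ratio of activators to NFIL3 had a median log2 of 1.04 in MYC-ON and that of series 2 a median of 0.54.

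A linear change of the MYC effect with CT was tested across genes. For NFIL3 in SHEP it was 0.24 per 24 h (SE 0.099, limma, adjusted p = 0.053), just short of the threshold, and it rested on the second series, with 0.49 without the first (limma, adjusted p = 0.000291) and -0.01 without the second (limma, adjusted p = 0.892). After rescaling it was 0.27 and called (limma, adjusted p = 0.028), and with a term for the series it was 0.24 and called (limma, adjusted p = 0.0402). For DBP it was -0.03 (limma, adjusted p = 0.865) and for TEF -0.20 (limma, adjusted p = 0.139). In the fit to both series with neither change no member was called, while 14.7% of tested genes were called higher and 25.1% lower. Of those called 37.0% were higher, against 47.4% after rescaling. In SKNAS the change was 0.22 for DBP (adjusted p = 0.76), 0.61 for TEF (unadjusted p = 0.0225, limma, adjusted p = 0.679) and 0.26 for NFIL3 (adjusted p = 0.679), by the limma fit in which 0.00720% of genes were called higher and 0.00% lower, with 617 genes at an unadjusted p under 0.05.

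**Figure D3:**
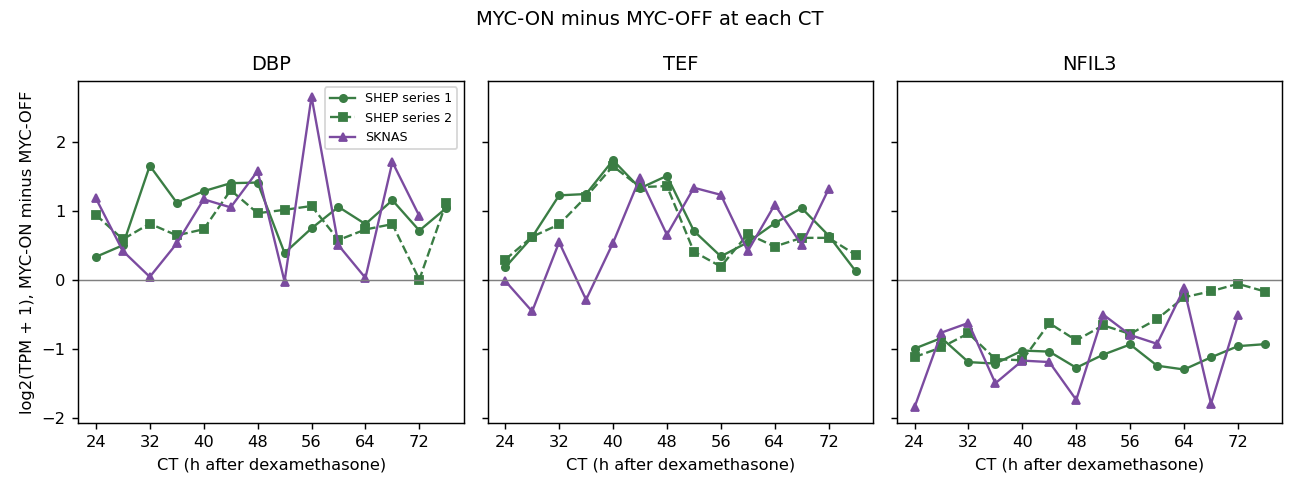
MYC-ON minus MYC-OFF in log2(TPM + 1) (vertical axis) of DBP, TEF and NFIL3 at each CT in hours, for SHEP series 1 and 2 and for SKNAS, 1 point per pair of libraries, with a line at 0. DBP and TEF lie above 0 and NFIL3 below it in SHEP, where NFIL3 in series 2 comes up to -0.06 late in the series.

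TEF was the member with a rhythm that both SHEP series shared. In SHEP MYC-OFF its mean over the 2 series was 2.83 TPM at CT32, 0.435 at CT44, 2.64 at CT56, 0.807 at CT68 and 1.66 at CT76. These are 2 highs and 2 lows about 24 h apart, with a 6.51-fold range between CT32 and CT44. The 2 series followed each other closely over the 14 CTs, with r = 0.93 and rho = 0.92 as a description. In SHEP MYC-ON the mean was 6.76 TPM at CT32 and 2.62 at CT44, a 2.58-fold range, and 3.95 at CT48, after which it lay between 2.06 and 3.57 TPM with no second high of that size. The MYC-ON series also followed each other, with r = 0.90 and rho = 0.88. No trend was removed for these r and rho, so the fall of TEF along both MYC-ON series enters them as well as any rhythm. The lowest MYC-ON mean over CT24 to CT48, 2.62 TPM, was close to the highest MYC-OFF mean of 2.83 TPM.

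A 24 h cosine was fitted across all genes in each group. TEF in SHEP MYC-OFF had an amplitude of 0.52 in log2(TPM + 1) (SE 0.073, limma, adjusted p = 0.00817) and a fitted peak at 7.22 h (SE 0.51) of CT modulo 24. Its p ranked 2 of 14362 genes, of which 13, or 0.0905%, were called, and TEF was the 1 member among them. In SHEP MYC-ON its amplitude was 0.27 (SE 0.061, unadjusted p = 0.000682, limma, adjusted p = 0.225) with a fitted peak at 10.1 h (SE 0.84), at rank 42, and no member was among the 3 genes, or 0.0209%, called. The rhythm of TEF differed between MYC-ON and MYC-OFF by a vector of length 0.37 (SE 0.094, unadjusted p = 0.00128, limma, adjusted p = 0.683), which did not pass. Of all genes 0.00% passed that test in SHEP and 0.00% in SKNAS, with 709 and 73 at an unadjusted p under 0.05. The TEF call in MYC-OFF needed both series, since its amplitude of 0.53 without the first and 0.50 without the second had an adjusted p of 0.675 and 0.517 by limma. In these fits 0 genes were called, and TEF had unadjusted p of 0.000528 and 0.00215 (limma) and peaks at 7.21 and 7.22 h. With a period of 22 h its amplitude was 0.42 and not called (limma, adjusted p = 0.173). At 26 h it was 0.57 and called (limma, adjusted p = 0.00019).

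DBP and NFIL3 showed less of a rhythm in SHEP. The DBP amplitude was 0.12 in MYC-OFF (limma, adjusted p = 0.765), or 0.27 without series 1 (limma, adjusted p = 0.743) and 0.05 without series 2 (limma, adjusted p = 0.986), and 0.18 in MYC-ON (SE 0.060, unadjusted p = 0.0257, limma, adjusted p = 0.418), with a fitted peak at 12.4 h. The NFIL3 amplitude was 0.05 (limma, adjusted p = 0.651) and 0.13 (SE 0.038, unadjusted p = 0.0112, limma, adjusted p = 0.367), with a fitted peak in MYC-ON at 24.0 h. The 2 series of DBP did not follow each other in MYC-OFF (r = -0.07, rho = 0.02 over 14 CTs) and did so weakly in MYC-ON (r = 0.31, rho = 0.25). Those of NFIL3 had r = 0.36 and rho = 0.34 in MYC-OFF and r = -0.41 and rho = -0.39 in MYC-ON, where the second series climbed late.

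In SKNAS no gene passed at an adjusted p of 0.1, or 0.00% of the MYC-OFF and 0.00% of the MYC-ON tests, with 60 and 46 genes at an unadjusted p under 0.05. TEF in SKNAS MYC-OFF was highest at CT36 with 4.31 TPM, lay between 0.444 and 0.876 TPM from CT44 to CT56, with the lowest value at CT56, and was 2.45 TPM at CT60, with an amplitude of 0.37 (unadjusted p = 0.171, limma). DBP had an amplitude of 0.30 in MYC-OFF and 0.46 in MYC-ON (SE 0.179, unadjusted p = 0.0751, limma, adjusted p = 0.994), with a fitted peak in MYC-ON at 18.6 h. A damped oscillator with a free period, written after the kind of model the study used, called 2789 genes (14.2% of those tested) in MYC-OFF and 2374 (11.8%) in MYC-ON of SHEP, and 878 (4.67%) and 636 (3.55%) in SKNAS. It called TEF in both SHEP groups, with periods of 25.5 h in MYC-OFF and 22 h in MYC-ON, and NFIL3 in both, with 23.5 h and 24 h. It called DBP in SHEP MYC-ON at 21 h and in SKNAS MYC-ON at 26 h, and no other member. Its p does not account for the search over periods, and 16619 of the 19584 genes tested in SHEP MYC-OFF passed on adjusted p alone.

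**Figure D4:**
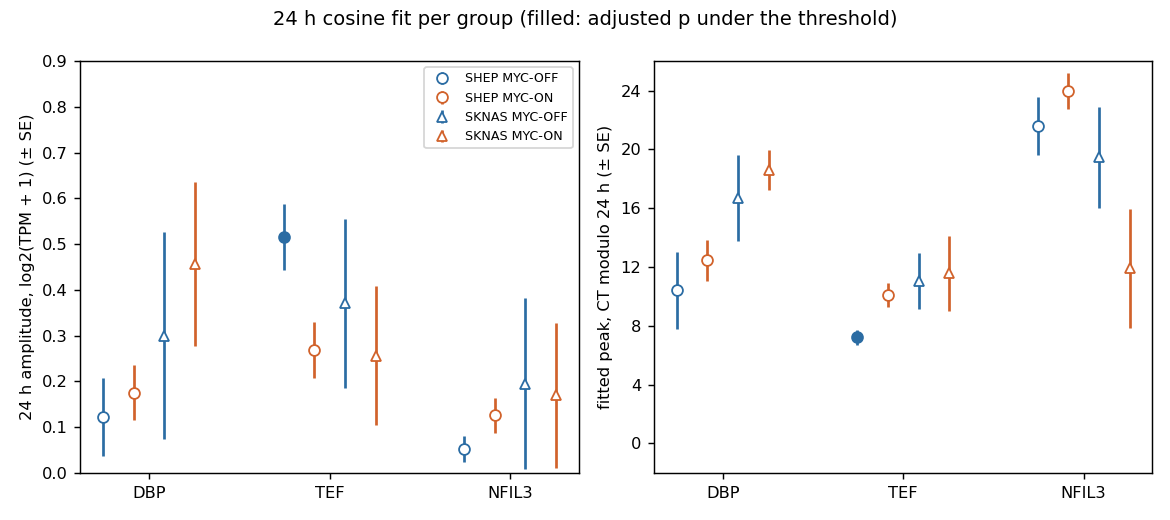
Amplitude in log2(TPM + 1) (left) and fitted peak in hours of CT modulo 24 (right) of the 24 h cosine for DBP, TEF and NFIL3 in each of the 4 groups, with bars of 1 SE and filled symbols where the adjusted p passed. The 1 filled symbol is TEF in SHEP MYC-OFF, with an amplitude of 0.52 and a peak at 7.22 h.

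The genes whose residual pattern was most like that of each member were taken over the 56 SHEP libraries after the mean and linear trend of each series and condition were removed. For TEF they were PER2 (r = 0.69), PER3 (r = 0.64) and TUBB2A (r = 0.61). For DBP they were TBCD (r = 0.59), CTNNBIP1 (r = 0.58) and NFS1 (r = 0.56). For NFIL3 they were CCDC50 (r = 0.67), CNBP (r = 0.65) and ARMC10 (r = 0.61), where r was 0.39, 0.27 and 0.29 within MYC-OFF and 0.76, 0.75 and 0.72 within MYC-ON. TEF and ARNTL, the gene of BMAL1, had r = -0.79 over 28 libraries of SHEP MYC-OFF and r = -0.40 over 28 of MYC-ON, but r = -0.05 over 14 libraries of SKNAS MYC-OFF and r = 0.44 over 13 of MYC-ON. TEF and PER3 had r = 0.88 over 14 libraries of SKNAS MYC-OFF and r = 0.71 over 13 of MYC-ON. In SKNAS MYC-ON NFIL3 and PER3 also had r = 0.77, and TEF and NFIL3 r = 0.66. In SHEP MYC-ON these were -0.61 and -0.62. The library median, which varied more in SKNAS, was not removed, and its part in the SKNAS values was not tested. The points of each correlation share their libraries and dexamethasone series, and no test was made.

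The clock genes that act on the members or through the D-box were given by fixed lists. Of the E-box activators, which drive DBP in the textbook clock, 0 of 3 tested were called higher and 2 lower in SHEP, and 0 of 4 higher and 3 lower in SKNAS, beside the 33.0% higher and 38.9% lower of all genes in SHEP and 13.7% and 34.4% in SKNAS. ARNTL fell by 2.03 and 2.18, ARNTL2, its close relative, fell by 0.24 and 1.14, and NPAS2, a partner of BMAL1, fell by 1.20 in SKNAS. CLOCK was not called, with -0.10 and -0.25. Of the E-box repressors 6 of 7 were called higher and 1 lower in SHEP, and 5 and 0 of 7 in SKNAS, against 33.0% and 38.9% of all genes in SHEP and 13.7% and 34.4% in SKNAS. BHLHE40 (DEC1), which competes for E-boxes, fell by 0.48 in SHEP and rose by 1.03 in SKNAS, while its relative BHLHE41 rose by 1.08 and 2.18.

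Of the receptors at ROR elements, which act on NFIL3 in the textbook clock, 3 of 3 tested were called higher in SHEP, and 2 of 4 higher and 1 lower in SKNAS, where all genes gave 33.0% higher in SHEP and 13.7% higher and 34.4% lower in SKNAS. NR1D1 (REV-ERB alpha), a repressor, rose by 2.63 in SHEP and 2.51 in SKNAS, and NR1D2 (REV-ERB beta) rose by 0.44 and 0.70. RORA, an activator at the same element, rose by 0.29 in SHEP and fell by 0.40 in SKNAS.

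Of the clock genes listed as D-box genes 7 of 7 tested were called higher in SHEP, beside 33.0% of all genes, with a median log2 difference of 0.97 where that of all tested genes was -0.04. In SKNAS 5 of 8 were called higher and 1 lower, beside 13.7% and 34.4% of all genes, with a median of 0.79 where that of all genes was -0.29. PER1, PER2 and PER3 rose by 0.54, 1.28 and 2.14 in SHEP and by 0.88, 1.00 and 1.27 in SKNAS. CRY1, a repressor of CLOCK and BMAL1, rose by 0.97 in SHEP and was not called in SKNAS, with 0.45. This list overlaps those of the E-box repressors and of the ROR-element receptors, so the counts are not separate.

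The metabolic genes listed as PAR bZIP outputs gave 1 of 3 called higher and 0 lower in each line, with medians of 0.05 in SHEP and -0.04 in SKNAS. All genes gave 33.0% higher in SHEP and 13.7% in SKNAS, so the SHEP share is that of the background. ALAS1, the first enzyme of heme synthesis, rose by 0.37 in SHEP and was not called in SKNAS, with -0.07. PDXK, which makes the active form of vitamin B6, rose by 0.90 in SKNAS and was not called in SHEP, with 0.05. POR, the electron donor of cytochrome P450 enzymes, was called in neither, with -0.14 and -0.04. The remaining 3 genes of the list (NR1I3, CYP7A1 and CYP3A4) did not reach a mean of 1 TPM in either line. Of the C/EBP relatives, bZIP factors whose sites resemble the D-box, 4 of 4 tested were called higher in SHEP and 2 of 4 in SKNAS, beside 33.0% and 13.7% of all genes, with CEBPG at 0.79 and 0.58 and DDIT3 at 0.71 and 0.78 called in both lines. CEBPA, below the filter, was not tested and was lower in MYC-ON in 25 of 28 SHEP pairs, with medians of 1.16 and 0.469 TPM in MYC-OFF and MYC-ON.

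**Figure D5:**
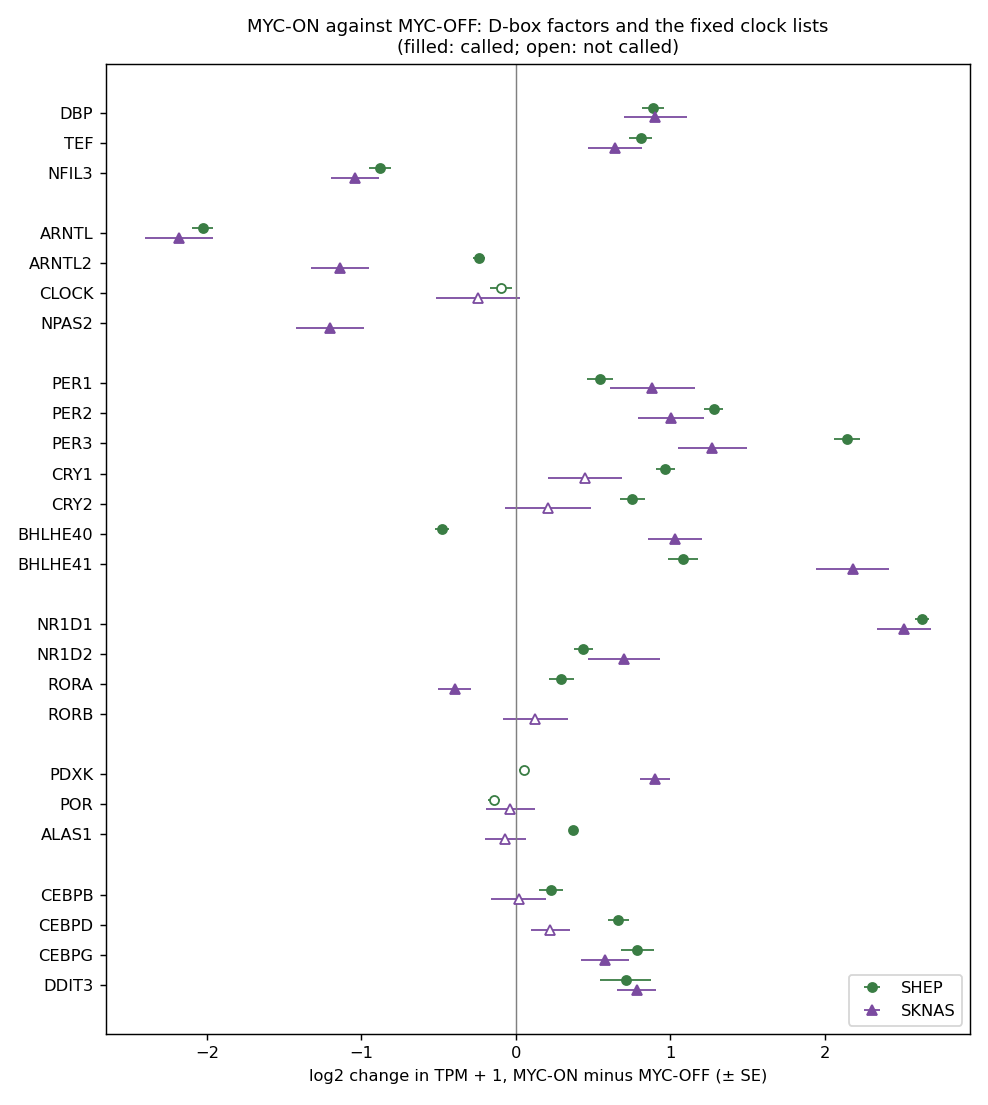
MYC-ON minus MYC-OFF in log2(TPM + 1) with bars of 1 SE for DBP, TEF, NFIL3 and the tested genes of the fixed lists in SHEP (circles) and SKNAS (triangles), filled where called. DBP and TEF sit at 0.64 to 0.90 and NFIL3 at -0.88 and -1.04, between NR1D1 at the right and ARNTL at the left.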

How the data were processed

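RNA-sequencing of 83 libraries was used as deposited. The authors quantified reads with Salmon 1.3.0 on GENCODE transcripts of GRCh38 and collapsed them to genes with Tximport, and the deposited values are TPM. Counts were not used here, so limma 3.58.1 (R 4.3.3) on log2(TPM + 1) replaced the count model of the authors (DESeq2). The fit, with CT as a factor, took every gene whose mean over the line reached 1 TPM, adjusted p over all of these by Benjamini-Hochberg, and called a gene where that p did not exceed 0.05 and the log2 difference was 0.15 or more either way. CT was left out of the fit to SKNAS libraries with a median of at least 3.8 and of the fit to series means. Rhythm was tested by an F test of a 24 h cosine with series means and a linear trend, with thresholds on adjusted p of 0.05 (SHEP) and 0.1 (SKNAS). The damped oscillator fitted periods from 8 to 52 h and called 20 to 28 h, genes above 0 TPM in at least 70% of libraries and an amplitude change coefficient within 0.15. Python 3.11.15 was used for levels, ratios and motifs. Named genes were the 4 members, MYCN, fixed lists (of which 2 genes are not reported here) and, for each tested member, the 3 genes with the highest r. SPHK2 was named after its overlap with DBP was found. The members and lists were chosen with earlier results of these data known. The scripts were tested on simulated data. The read depth of each library is not given by TPM. Not analysed here were the study's other cell line and its further SKNAS series.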

Additional observations from a re-analysis of the deposited data

Results flagged for a closer look

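HLF is listed because its MYC effect differed between the lines by a test of the difference itself. Fitted without the filter on low values, the rise of HLF in MYC-ON was larger in SKNAS than in SHEP by 0.50 in log2(TPM + 1) (limma interaction, SE 0.114, adjusted p = 0.000608, 95% interval 0.27 to 0.72). That fit called 2371 of 39878 genes higher and 6705 lower in SKNAS. HLF had medians of 0 and 0.087 TPM in SHEP MYC-OFF and MYC-ON and of 0.247 and 1.18 TPM in SKNAS. Its means were 0.00943 and 0.149 TPM in SHEP and 0.428 and 1.32 TPM in SKNAS. As a multiple of the MYC-OFF mean the rise was therefore larger in SHEP, so the direction of this difference depends on the scale. The difference was 0.69 after rescaling by median of ratios, 0.69 with the library median as a covariate and 0.62 with a pseudocount of 0.1, where it was not called (limma interaction, adjusted p = 0.16).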

How the results depend on the processing

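The fits without CT60 to CT76 of series 2, those that leave libraries out of the ratio, and the alternatives applied to the fit without the filter for HLF were chosen after seeing the data. Of the values of single members 238 kept their direction and side of the threshold, 8 came to pass it, 6 no longer passed it and 10 turned sign, and of the counts and ratios 73 stayed and 18 moved. The cause was not tested. The genes whose MYC effect changed with CT in SKNAS numbered 1, and 0 with a pseudocount of 0.1, 5 with no filter, 6 after rescaling and 20 with the covariate. Genes with a 24 h rhythm in SHEP MYC-OFF numbered 13, and 5 with the filter of 70%, 5 at 22 h, 7 with no replicate block and 0 to 0 with either series left out. In SHEP MYC-ON they numbered 3, and 6 at 22 h, 1 at 26 h and 0 to 0 with either series left out. The damped oscillator gave 2789, 2374, 878 and 636. The SHEP rhythm difference, called for 0 genes, was called for 3 at 26 h, and TEF was not among them (limma, adjusted p = 0.182). The MYC effect in SKNAS minus that in SHEP turned sign for DBP to -0.049 with a pseudocount of 0.1 and -0.17 with the covariate, for TEF to 0.11 after rescaling and 0.034 with the covariate, and for NFIL3 to 0.021 and 0.091 under the same settings, and none was called. TEF in SKNAS against SHEP in MYC-ON turned to 0.23 after rescaling. The change of the MYC effect with CT in SHEP was 0.0082 for DBP after rescaling and -0.066 to 0.0099 with either series left out, and for NFIL3 it was 0.49 without series 1 and -0.014 without series 2.

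Same-numbered SHEP series of MYC-OFF and MYC-ON deviated together with r = 0.49 over 14362 genes, and with 2 numbers they share only a number. With the replicate block 10370 genes changed in level in SHEP against 10314 without it, and the change with CT of NFIL3 (0.24) passed (limma, adjusted p = 0.0402). SKNAS has 1 series and so no such block. Its fit compares the conditions within CT, except that to libraries with a median of at least 3.8, which has no CT term. Depth is unknown from TPM, which limits HLF most, at 0 TPM in 18 of 28 SHEP MYC-OFF libraries.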
